A study of Mus musculus with 12 samples.

Results

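Bone marrow RNA counts were examined for 37 genes of sugar metabolism, which cover glucose uptake, glycolysis and its fructose 2,6-bisphosphate control, the pentose phosphate pathway and glycogen handling. The 37 were taken from the 24415 genes of the table by matching gene symbols, with red cell isozymes (Hk1, Pklr, Bpgm) set beside isozymes typical of myeloid cells such as Hk3. Of these, 36 passed the expression filter, together with 15283 genes in all. The filter left out Eno1, the ubiquitous enolase, which was listed at 0 to 4 counts per library, while its retrotransposed copy Eno1b had 85 to 170. In the reference transcripts 72.2% of the 50-base words of Eno1 recur in other genes, so its low count cannot be read as low expression.

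Libraries were made from bone marrow, taken whole, of C57BL/6J females at 8 weeks of age, with 4 in each of 3 groups. Sham mice given an isotype control antibody are replicates 1 to 4, mice with a flame burn and the isotype antibody are replicates 5 to 8, and mice with a flame burn and an antibody against granulocyte colony-stimulating factor (G-CSF) are replicates 9 to 12. Antibody was started 12 hours ahead of injury and repeated at injury and daily until marrow was taken on day 7, so every group carries an injected antibody. Per its title, the study concerns G-CSF after burn, the macrophages that nurse red cell precursors in marrow, and red cell formation. A group of sham mice given anti-G-CSF was not analysed here, so an effect of the antibody without burn cannot be told apart from its effect after burn.

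Glycolysis splits glucose to pyruvate and yields ATP without oxygen. Mature red cells, which lose their mitochondria, depend on it, and they divert part of the flow through bisphosphoglycerate mutase (Bpgm) to 2,3-bisphosphoglycerate, which loosens the hold of hemoglobin on oxygen. Neutrophils have few mitochondria and also rely on glycolysis and on stored glycogen, and they draw NADPH for the oxidative burst from the first steps of the pentose phosphate pathway. Several steps are served by isozymes from separate genes, of which some are typical of red cells, some of myeloid cells and some of brain or muscle.

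Libraries held 18780399 to 25708084 gene counts each. Marker genes of the lineages in marrow differed between the groups. The 18 red cell precursor genes summed to 13424 to 14662 CPM (a read count scaled to a library of fixed size) in sham, 6083 to 8689 after burn and 13483 to 20009 after burn with anti-G-CSF. The 16 neutrophil genes summed to 46067 to 58698, 84841 to 102381 and 28955 to 38422 CPM, and the 8 monocyte genes to 2834 to 3267, 4279 to 5907 and 2243 to 3195 CPM, in the same order of groups. The 10 B lineage genes summed to 1624 to 1843, 616 to 1021 and 1166 to 1913 CPM, and the 8 T and NK cell genes to 87.7 to 136, 47.1 to 78.6 and 73.3 to 116 CPM. All 18 red cell genes passed as lower after burn and as higher with anti-G-CSF than with isotype after burn. So did all 10 B lineage genes, while 4 of 8 T and NK cell genes fell and 3 were higher with anti-G-CSF. All 16 neutrophil genes passed in the opposite directions. Of all genes tested 11.1% rose and 9.92% fell after burn, and 17.7% were higher and 16.9% lower with anti-G-CSF. The marker lists, too, were chosen with earlier results of these data known. None of these defining markers was at 0. They moved with the results on sugar genes given next, and their part in those results was not tested. In RNA from whole marrow fewer cells of a type and less RNA per cell cannot be told apart, here and in every result that follows.

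Transcripts typical of brain and heart were also present. The 18 brain genes summed to 530.3 to 647 CPM in sham, 401 to 993 after burn and 897 to 1782 after burn with anti-G-CSF, with the highest levels in replicates 9 and 12. The 10 heart genes summed to 333 to 409, 239 to 662 and 565 to 1189.9 CPM. For the members, results that rest on replicates 9 and 12 are given with and without them. Named genes outside the members are given from all libraries only.

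Most glycolytic, pentose phosphate and glycogen genes were higher after burn, and most were lower when G-CSF was neutralised, while Bpgm and the red cell pyruvate kinase Pklr went the other way. After burn 24 of the 36 tested members rose and 4 fell (edgeR quasi-likelihood test, Benjamini-Hochberg adjusted over all genes at 0.05, as for every adjusted p here). Of all 15283 genes 11.1% rose and 9.92% fell. The members' median log2 fold change was 0.48, against -0.00026 for all genes tested. The members were chosen with earlier results of these data known. Their excess over all genes, here and in the other comparisons, is therefore a description and not a test. Groups did not overlap for 27 members, of which 24 lay higher after burn, beside 24.7% of all genes. The 4 that fell were Bpgm, Pklr, the lactonase gene Pgls and the kinase gene Pdk1.

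Burn with anti-G-CSF was set against burn with isotype to ask which levels depended on G-CSF. In that comparison 24 members were lower and 5 higher, while 16.9% of all genes passed as lower and 17.7% as higher. The members' median was -0.62, against 0.083 for all genes. Groups did not overlap for 27 members, of which 23 lay lower, beside 28.9% of all genes. The 5 that were higher were Bpgm, Pklr, Pdk1, the muscle phosphofructokinase Pfkm and Pfkfb2. Without replicates 9 and 12 the counts were 24 lower and 5 higher, and with library-size scaling alone 22 lower and 8 higher. Both comparisons use the burn isotype libraries, so their opposite signs are not separate evidence. The shares of all genes given for each comparison also stand beside the counts by pathway step below.

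**Figure D1:**
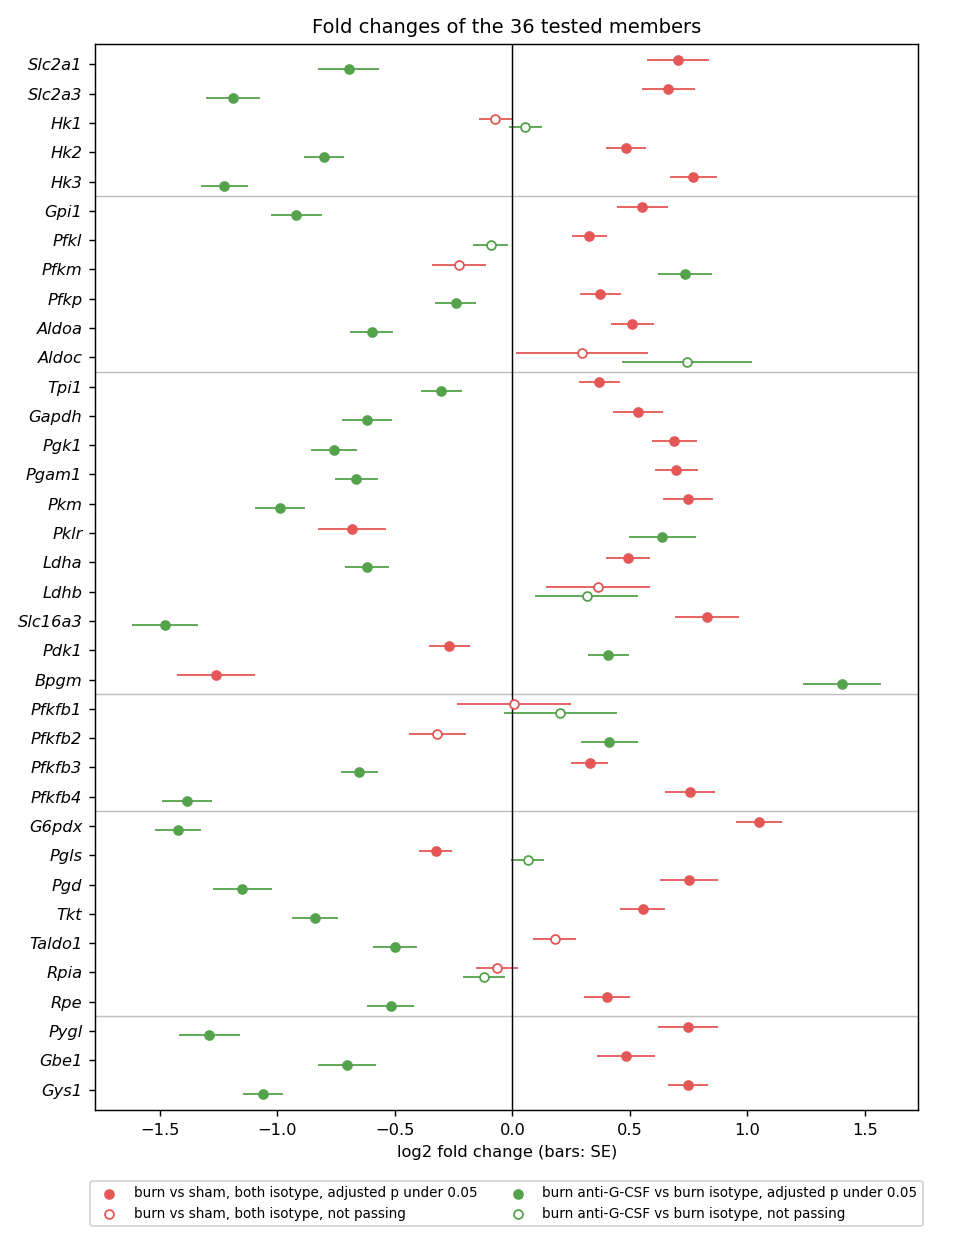
Log2 fold change (x axis, bars are SE) of each of the 36 tested members (y axis, in pathway order with lines between functional groups) after burn (red) and with anti-G-CSF against isotype after burn (green). Filled points pass an adjusted p of 0.05. Most red points lie right of 0 and most green points left of it, and both are reversed for Bpgm, Pklr, Pdk1, Pgls, Pfkm, Pfkfb2 and Hk1, of which Bpgm, Pklr and Pdk1 pass in both. The burn isotype libraries enter both colours.

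Of the 3 genes set here as red cell isozymes Bpgm and Pklr fell after burn, and Hk1 did not pass the test. Red cells also use Aldoa and Pfkm, given further on, of which Aldoa rose after burn and Pfkm did not pass. Bpgm, which makes and breaks down 2,3-bisphosphoglycerate in red cells, changed most of all members after burn (Entrez gene 12183, chromosome 6, 34476356 to 34505610, plus strand, mm10). It stood at 1496, 1458, 1467 and 1605 CPM in sham replicates 1 to 4, at 460.4, 629, 673 and 752 in burn replicates 5 to 8 and at 2296, 1461, 1597 and 1291 in burn anti-G-CSF replicates 9 to 12. Every burn isotype library lay below every other library, and replicate 9 was the highest. Its mean was 1506 ± 67.5 CPM (SD, n = 4) in sham, 628 ± 123 after burn and 1661 ± 441 with anti-G-CSF. Bpgm fell after burn with a log2 change of -1.26 ± 0.17, where ± is the SE as for every log2 change here (adjusted p = 9.55e-05), or 2.40-fold, and was 2.64-fold higher with anti-G-CSF than with isotype after burn (1.40 ± 0.17, adjusted p = 1.24e-05).

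Pklr, the pyruvate kinase of red cells and liver (Entrez gene 18770, chromosome 3, 89136142 to 89146594, plus strand), stood at 46.3, 40.9, 36.9 and 38.0 CPM in sham replicates 1 to 4, at 21.2, 34.4, 21.0 and 24.5 in burn replicates 5 to 8 and at 34.6, 34.4, 43.7 and 44.3 in burn anti-G-CSF replicates 9 to 12. The burn isotype values lay below all sham values, and burn replicate 6 overlapped the anti-G-CSF group. Pklr fell after burn by 0.68 ± 0.14 on the log2 scale, adjusted p = 0.00244, and was higher with anti-G-CSF (0.64 ± 0.14, adjusted p = 0.00258). Hk1, the hexokinase of red cells and of most other tissues (Entrez gene 15275, chromosome 10, 62268855 to 62379908, minus strand), passed in neither comparison. Hk1 stood at 274, 267, 262 and 251 CPM in sham replicates 1 to 4, at 255, 268, 226 and 253 in burn replicates 5 to 8 and at 266, 253, 249.7 and 272 in burn anti-G-CSF replicates 9 to 12. All 3 groups overlapped, at 263 ± 9.47, 250.4 ± 17.3 and 260.1 ± 10.7 CPM, and the fold changes were -0.074 ± 0.070, adjusted p = 0.525, after burn and 0.055 ± 0.070, adjusted p = 0.573, with anti-G-CSF. With library-size scaling alone Hk1 passed in both comparisons, at -0.18 (adjusted p = 0.0305) and 0.24 (adjusted p = 0.00341), a scaling that moved the median of all genes to -0.10 and 0.26.

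**Figure D2:**
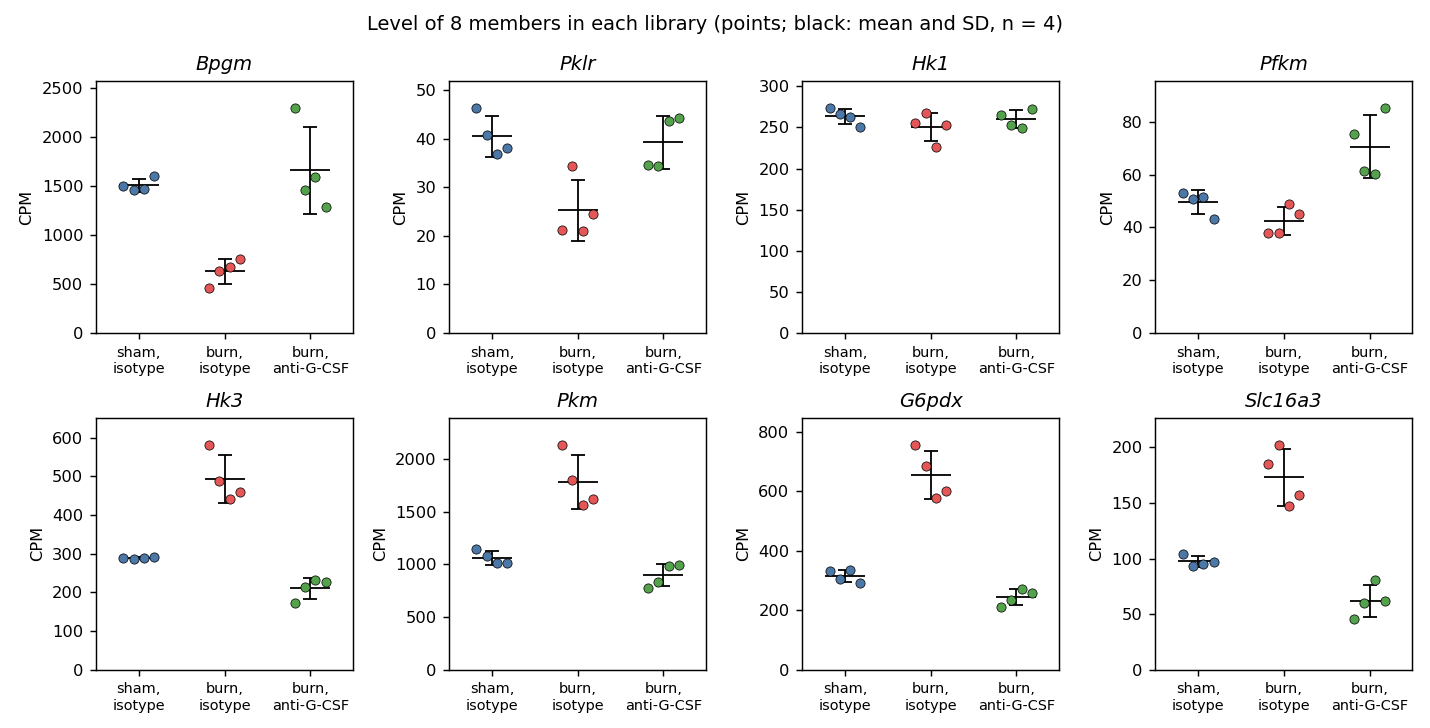
CPM (y axis, from 0) of 8 members in each library (points) by group, with mean and SD in black (n = 4). Bpgm and Pklr are lowest after burn with isotype, Hk1 is level across the groups, Pfkm is highest with anti-G-CSF, and Hk3, Pkm, G6pdx and Slc16a3 are highest after burn with isotype.

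Glucose enters through facilitative transporters and is trapped by hexokinases. Of these 5 genes 4 rose after burn and 4 were lower with anti-G-CSF, with Hk1 the exception in both. Hk3, the hexokinase typical of myeloid cells (Entrez gene 212032, chromosome 13, 55005985 to 55021385, minus strand), stood at 289.8, 285, 288 and 293 CPM in sham replicates 1 to 4, at 582, 489, 440.4 and 459 in burn replicates 5 to 8 and at 172, 213, 231 and 226 in burn anti-G-CSF replicates 9 to 12. No burn isotype library overlapped another group, and the 4 sham values lay within 285 to 293 CPM. Hk3 rose by 0.77 ± 0.10, adjusted p = 3.76e-05, and was lower with anti-G-CSF (-1.23 ± 0.10, adjusted p = 8.35e-08). Slc2a3, the high-affinity glucose transporter GLUT3, stood at 304, 288, 299.6 and 276 CPM in sham replicates 1 to 4, at 483, 522, 427 and 416 in burn replicates 5 to 8 and at 153, 201, 245 and 212 in burn anti-G-CSF replicates 9 to 12. Its groups were fully apart, with burn isotype on top and anti-G-CSF at the bottom. Slc2a3 rose by 0.66 ± 0.11, adjusted p = 4.51e-04, and was lower with anti-G-CSF (-1.19 ± 0.11, adjusted p = 6.38e-07).

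Slc2a1, the GLUT1 transporter found on many cell types, stood at 21.3, 21.7, 23.5 and 23.0 CPM in sham replicates 1 to 4, at 33.4, 43.8, 34.9 and 33.7 in burn replicates 5 to 8 and at 21.6, 17.0, 22.8 and 28.5 in burn anti-G-CSF replicates 9 to 12. Burn replicate 6 was its highest library, and all burn isotype values lay above the rest. Slc2a1 rose by 0.70 ± 0.13, adjusted p = 7.60e-04, and was lower with anti-G-CSF (-0.70 ± 0.13, adjusted p = 4.68e-04). Hk2, a hexokinase of muscle and of activated cells, stood at 83.1, 84.2, 91.7 and 95.8 CPM in sham replicates 1 to 4, at 137, 132, 112 and 115 in burn replicates 5 to 8 and at 63.2, 69.5, 77.3 and 74.4 in burn anti-G-CSF replicates 9 to 12. Here too no burn isotype library overlapped another group. Hk2 rose by 0.48 ± 0.085, adjusted p = 5.16e-04, and was lower with anti-G-CSF (-0.80 ± 0.085, adjusted p = 1.50e-06).

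The next steps carry glucose 6-phosphate to triose phosphates. Of 6 genes 4 rose after burn, and with anti-G-CSF 3 were lower and 1 higher. Gpi1, which makes fructose 6-phosphate, stood at 745, 769.9, 718 and 791 CPM in sham replicates 1 to 4, at 1312, 1116, 970.3 and 1036 in burn replicates 5 to 8 and at 489, 548, 689 and 620.1 in burn anti-G-CSF replicates 9 to 12. Burn isotype was the highest group without overlap. Gpi1 rose by 0.55 ± 0.11, adjusted p = 0.00116, and was lower with anti-G-CSF (-0.92 ± 0.11, adjusted p = 4.60e-06). Aldoa, the aldolase of muscle and red cells, stood at 598, 575, 507 and 559 CPM in sham replicates 1 to 4, at 882, 783, 746 and 776 in burn replicates 5 to 8 and at 497, 459, 553 and 596 in burn anti-G-CSF replicates 9 to 12. Its sham and anti-G-CSF values overlapped, and both lay below burn isotype. Aldoa rose by 0.51 ± 0.091, adjusted p = 5.72e-04, and was lower with anti-G-CSF (-0.60 ± 0.091, adjusted p = 6.69e-05).

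The 3 phosphofructokinase subunits, which together form the enzyme that commits sugar to glycolysis, differed in pattern. Pfkl, the liver-type subunit, stood at 53.9, 57.2, 53.3 and 51.3 CPM in sham replicates 1 to 4, at 69.6, 73.3, 62.1 and 65.6 in burn replicates 5 to 8 and at 57.9, 66.3, 64.0 and 65.5 in burn anti-G-CSF replicates 9 to 12. Burn isotype values were all above sham and overlapped anti-G-CSF. Pfkl rose by 0.33 ± 0.074, adjusted p = 0.00377, and did not pass with anti-G-CSF (-0.093 ± 0.074, adjusted p = 0.348). Pfkp, the platelet-type subunit, stood at 71.1, 65.9, 65.0 and 65.9 CPM in sham replicates 1 to 4, at 96.7, 93.4, 78.9 and 78.5 in burn replicates 5 to 8 and at 67.7, 67.8, 73.0 and 85.2 in burn anti-G-CSF replicates 9 to 12. Burn isotype lay above sham and overlapped anti-G-CSF. It rose by 0.37 ± 0.089, adjusted p = 0.00526, and was lower with anti-G-CSF by -0.24 ± 0.089, adjusted p = 0.0430, a call lost when replicate 5, 6, 9, 10 or 11 was left out (adjusted p = 0.0936 to 0.152), with library-size scaling (adjusted p = 0.562) and with the brain level as a covariate (adjusted p = 0.286).

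Pfkm, the muscle-type subunit, which mammalian red cells also use (Entrez gene 18642, chromosome 15, 98112060 to 98132447, plus strand), stood at 53.1, 50.6, 51.7 and 43.3 CPM in sham replicates 1 to 4, at 37.8, 38.1, 48.7 and 45.2 in burn replicates 5 to 8 and at 75.3, 61.3, 60.4 and 85.2 in burn anti-G-CSF replicates 9 to 12. Anti-G-CSF values lay above all others, replicates 9 and 12 being the highest, and burn and sham overlapped. Pfkm was at -0.23 ± 0.12, adjusted p = 0.194, after burn and was higher with anti-G-CSF (0.73 ± 0.12, adjusted p = 9.97e-05). Without replicates 9 and 12 the latter was 0.53 (adjusted p = 0.00239). With the brain level as a covariate it was 0.44 (adjusted p = 0.00702), and the change after burn then passed, at -0.31 (adjusted p = 0.0100).

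The steps from triose phosphate to pyruvate and lactate were highest after burn with isotype, apart from Bpgm, Pklr, Ldhb and Pdk1. Of 12 genes 11 were tested, and 7 rose and 3 fell after burn. Pgk1, the first ATP-forming enzyme of the pathway, stood at 404, 369.7, 345 and 351 CPM in sham replicates 1 to 4, at 704, 603, 526 and 539 in burn replicates 5 to 8 and at 339, 311, 375 and 377 in burn anti-G-CSF replicates 9 to 12. Burn isotype lay above both other groups, which overlapped. Pgk1 rose by 0.69 ± 0.10, adjusted p = 9.09e-05, and was lower with anti-G-CSF (-0.76 ± 0.10, adjusted p = 1.16e-05). Pgam1, the glycolytic phosphoglycerate mutase and a relative of Bpgm, stood at 282, 278, 256 and 258 CPM in sham replicates 1 to 4, at 509, 456, 377 and 399 in burn replicates 5 to 8 and at 256, 262, 289 and 292 in burn anti-G-CSF replicates 9 to 12. Here too burn isotype lay above both other groups, which overlapped. Pgam1 rose by 0.70 ± 0.091, adjusted p = 4.36e-05, and was lower with anti-G-CSF (-0.66 ± 0.091, adjusted p = 2.10e-05).

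Pkm, the pyruvate kinase of most tissues (Entrez gene 18746, chromosome 9, 59656368 to 59679375, plus strand), stood at 1141, 1079, 1008 and 1013 CPM in sham replicates 1 to 4, at 2134, 1804, 1567 and 1623 in burn replicates 5 to 8 and at 779.5, 836, 988 and 989 in burn anti-G-CSF replicates 9 to 12. All 3 groups were apart, with burn isotype on top. Pkm rose 1.68-fold (0.75 ± 0.11, adjusted p = 9.75e-05) and was 1.98-fold lower with anti-G-CSF (-0.99 ± 0.11, adjusted p = 1.85e-06). Gapdh, which oxidises glyceraldehyde 3-phosphate, stood at 143, 134, 123 and 125 CPM in sham replicates 1 to 4, at 233, 193, 162 and 173 in burn replicates 5 to 8 and at 111, 114, 128 and 142 in burn anti-G-CSF replicates 9 to 12. Burn isotype lay above the rest. Gapdh rose by 0.54 ± 0.11, adjusted p = 0.00130, and was lower with anti-G-CSF (-0.62 ± 0.11, adjusted p = 2.09e-04). Tpi1, which interconverts the triose phosphates, ranged from 162 to 191 CPM in sham, 212 to 257 after burn and 159.6 to 200.3 with anti-G-CSF. It rose by 0.37 ± 0.087, adjusted p = 0.00465, and was lower with anti-G-CSF by -0.30 ± 0.086, adjusted p = 0.0123, a call lost without replicate 5 or 10 (adjusted p = 0.0534 and 0.0604) and with library-size scaling (adjusted p = 0.205).

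Several of these genes share stretches of sequence with other genes, and the way the authors' counting split or dropped shared reads is not known. The share of 50-base words that recur in other genes was 82.5% for Gapdh, 68.0% for Pgk1, 41.5% for Pgam1, 34.4% for Pkm, 27.0% for Ldhb, 23.2% for Pklr and 16.6% for Ldha. Outside these steps it was 25.3% for Gpi1 and 25.1% for Pfkfb2, and under 20% for the rest apart from Eno1. It was 0% for Bpgm, Hk3, Slc16a3 and Pgd. Words of Gapdh recurred in 222 other genes and those of Gpi1 in 122, but those of Pklr, Ldhb and Pfkfb2 in 1 each. Levels of the genes with shared words are therefore uncertain, and so is the ratio of Pkm to Pklr given further on. Hk1, Hk3, Pfkp, Tpi1 and Rpe overlap a gene on the opposite strand in the table, which matters if reads were counted without strand.

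Pyruvate is reduced to lactate by lactate dehydrogenase and exported by monocarboxylate transporters. Slc16a3, the lactate exporter MCT4 of glycolytic cells (Entrez gene 80879, chromosome 11, 120948484 to 120959000, plus strand), stood at 104, 93.6, 94.7 and 97.2 CPM in sham replicates 1 to 4, at 185, 202, 147 and 157 in burn replicates 5 to 8 and at 46.0, 59.6, 81.0 and 61.8 in burn anti-G-CSF replicates 9 to 12. Each group was apart from the others, with the lowest values under anti-G-CSF. Slc16a3 rose 1.78-fold (0.83 ± 0.14, adjusted p = 5.10e-04) and was 2.78-fold lower with anti-G-CSF (-1.48 ± 0.14, adjusted p = 1.39e-06). Ldha, the subunit that favours lactate formation, stood at 422, 397, 366 and 361 CPM in sham replicates 1 to 4, at 583, 614, 491 and 488 in burn replicates 5 to 8 and at 332, 319.8, 375 and 391 in burn anti-G-CSF replicates 9 to 12. Burn isotype lay above both other groups, which overlapped. Ldha rose by 0.49 ± 0.094, adjusted p = 9.94e-04, and was lower with anti-G-CSF (-0.62 ± 0.094, adjusted p = 6.92e-05).

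Pdk1, a kinase that shuts pyruvate dehydrogenase, ranged from 36.6 to 42.9 CPM in sham, 30.7 to 37.5 after burn and 41.4 to 49.1 with anti-G-CSF. It fell after burn (-0.27 ± 0.087, adjusted p = 0.0337), with overlapping groups, and that call was lost when replicate 1, 3, 4, 5, 6 or 7 was left out (adjusted p = 0.0619 to 0.0881). Pdk1 was higher with anti-G-CSF (0.41 ± 0.087, adjusted p = 0.00139), without overlap, though not with the brain level as a covariate (adjusted p = 0.0729).

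Aldoc and Ldhb, the aldolase typical of brain and the lactate dehydrogenase subunit typical of heart and brain, ranged widely among the libraries of both burn groups. Aldoc stood at 20.5, 21.2, 25.8 and 22.3 CPM in sham replicates 1 to 4, at 24.1, 16.3, 39.6 and 29.9 in burn replicates 5 to 8 and at 52.7, 31.3, 33.1 and 66.8 in burn anti-G-CSF replicates 9 to 12. Ldhb stood at 34.0, 37.4, 38.5 and 36.3 CPM in sham replicates 1 to 4, at 44.0, 31.8, 62.8 and 49.6 in burn replicates 5 to 8 and at 66.5, 42.5, 45.4 and 80.0 in burn anti-G-CSF replicates 9 to 12. For both genes the highest libraries were 9 and 12, the lowest was burn replicate 6, and burn replicate 7 stood above the rest of its group, which is also where the summed brain genes were highest and lowest. Neither passed after burn (0.29 ± 0.28, adjusted p = 0.531, and 0.37 ± 0.22, adjusted p = 0.296) or with anti-G-CSF against isotype (0.74 ± 0.28, adjusted p = 0.0558, and 0.32 ± 0.22, adjusted p = 0.288). Between the burn groups Aldoc passed with library-size scaling (adjusted p = 0.0175) and with another expression filter (adjusted p = 0.0421). It also passed without replicate 7, 10 or 11 (adjusted p = 0.0175 to 0.0315).

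In a fit with the brain level as a covariate, the slope on that level within groups was 1.05 ± 0.094 for Aldoc (log2 change per doubling of the brain level, adjusted p = 9.65e-08). It was 0.82 ± 0.082 for Ldhb (adjusted p = 4.40e-07) and 0.37 ± 0.092 for Pfkm (adjusted p = 0.00896). Slc16a3 had a negative slope (-0.36 ± 0.11, adjusted p = 0.0460). These were the 4 of 36 members whose slope passed, where 10.6% of all genes did. The summed heart genes were likewise lowest in replicate 6 and highest in replicates 9 and 12. A slope on the brain level therefore cannot be told apart from one on heart transcripts. Given the covariate, the difference between the burn groups was -0.071 for Aldoc (adjusted p = 0.735) and -0.33 for Ldhb (adjusted p = 0.0194), a reversed sign for both.

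**Figure D3:**
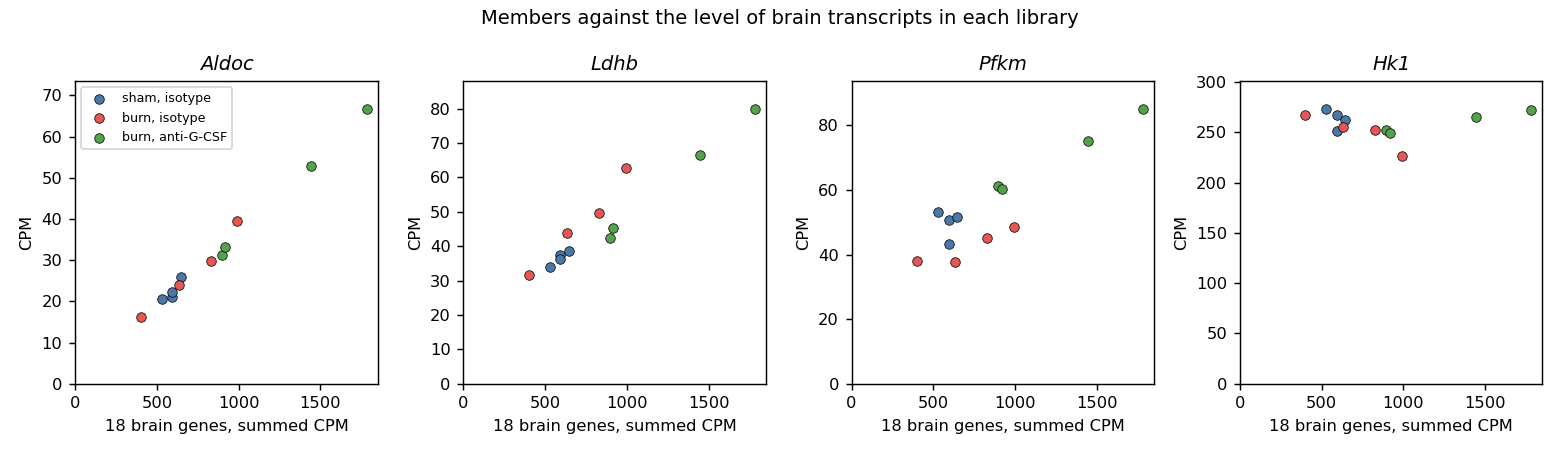
CPM of Aldoc, Ldhb, Pfkm and Hk1 (y axes, from 0) against the summed CPM of 18 brain genes (x axis) in each of the 12 libraries, coloured by group. Aldoc and Ldhb rise with the brain level across all groups, Pfkm is highest in the same 2 anti-G-CSF libraries, and Hk1 lies between 226 and 274 CPM.

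Fructose 2,6-bisphosphate, the strongest activator of phosphofructokinase, is made and removed by 4 bifunctional enzymes. Of their genes 2 rose after burn. Pfkfb4 (Entrez gene 270198, chromosome 9, 108991902 to 109032225, plus strand) stood at 96.6, 85.1, 93.0 and 93.1 CPM in sham replicates 1 to 4, at 174, 161, 141 and 146 in burn replicates 5 to 8 and at 45.3, 59.6, 68.9 and 64.1 in burn anti-G-CSF replicates 9 to 12. All 3 groups were apart, with burn isotype on top. Pfkfb4 rose by 0.76 ± 0.10, adjusted p = 8.34e-05, and was 2.61-fold lower with anti-G-CSF (-1.38 ± 0.11, adjusted p = 6.34e-08). Pfkfb3, the form with the highest kinase activity, stood at 77.8, 74.3, 80.3 and 82.0 CPM in sham replicates 1 to 4, at 96.5, 99.5, 95.2 and 104 in burn replicates 5 to 8 and at 58.7, 70.2, 67.1 and 55.4 in burn anti-G-CSF replicates 9 to 12. Its groups were apart in the same order. Pfkfb3 rose by 0.33 ± 0.078, adjusted p = 0.00506, and was lower with anti-G-CSF (-0.65 ± 0.078, adjusted p = 5.39e-06).

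Pfkfb2, a form typical of heart, stood at 33.8, 41.5, 45.9 and 48.6 CPM in sham replicates 1 to 4, at 27.3, 34.6, 36.8 and 37.2 in burn replicates 5 to 8 and at 52.0, 44.3, 45.1 and 39.6 in burn anti-G-CSF replicates 9 to 12. Burn isotype held the lowest values and overlapped sham. Pfkfb2 was at -0.32 ± 0.12, adjusted p = 0.0704, after burn. It was higher with anti-G-CSF (0.41 ± 0.12, adjusted p = 0.0141), though not without replicate 5 (adjusted p = 0.0541) or with the brain level as a covariate (adjusted p = 0.132). Pfkfb1, a form typical of liver and muscle, was scarce and stood at 2.84, 2.34, 2.65 and 4.55 CPM in sham replicates 1 to 4, at 3.24, 3.23, 3.21 and 2.75 in burn replicates 5 to 8 and at 4.15, 3.19, 3.35 and 3.64 in burn anti-G-CSF replicates 9 to 12. Its groups overlapped, and it passed in neither comparison (0.0078 ± 0.24, adjusted p = 0.987, and 0.20 ± 0.24, adjusted p = 0.541).

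The pentose phosphate pathway has an oxidative arm that yields NADPH and a second arm that rearranges sugars. The NADPH-forming dehydrogenases rose after burn, while the lactonase between them fell. G6pdx, the first and rate-limiting enzyme (Entrez gene 14381, chromosome X, 74409486 to 74429161, minus strand), stood at 332, 306, 333 and 293 CPM in sham replicates 1 to 4, at 756, 683, 576 and 602 in burn replicates 5 to 8 and at 212, 235, 270.2 and 258 in burn anti-G-CSF replicates 9 to 12. Its groups were fully apart. G6pdx rose 2.07-fold (1.05 ± 0.10, adjusted p = 3.79e-06), the largest rise among the members, and was 2.68-fold lower with anti-G-CSF (-1.42 ± 0.10, adjusted p = 2.53e-08). Pgd, the 6-phosphogluconate dehydrogenase, stood at 517, 514, 443 and 482 CPM in sham replicates 1 to 4, at 991, 878, 706 and 717 in burn replicates 5 to 8 and at 288, 363, 434 and 399 in burn anti-G-CSF replicates 9 to 12. Its groups were apart in the same order. Pgd rose by 0.75 ± 0.12, adjusted p = 3.70e-04, and was lower with anti-G-CSF (-1.15 ± 0.13, adjusted p = 2.60e-06). Pgls, the lactonase, ranged from 88.6 to 97.5 CPM in sham, 70.9 to 84.5 after burn and 75.8 to 81.9 with anti-G-CSF. It fell after burn (-0.33 ± 0.071, adjusted p = 0.00279) and did not pass between the burn groups (0.064 ± 0.071, adjusted p = 0.509), except with library-size scaling (0.25, adjusted p = 0.00510).

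In the second arm Tkt, the transketolase, stood at 809.7, 795, 710.1 and 749 CPM in sham replicates 1 to 4, at 1302, 1164, 979 and 1054 in burn replicates 5 to 8 and at 562, 595, 698 and 656 in burn anti-G-CSF replicates 9 to 12. Burn isotype lay above sham and sham above anti-G-CSF. Tkt rose by 0.55 ± 0.10, adjusted p = 5.00e-04, and was lower with anti-G-CSF (-0.84 ± 0.10, adjusted p = 3.73e-06). Rpe, which epimerises ribulose 5-phosphate, stood at 64.9, 64.2, 49.1 and 53.2 CPM in sham replicates 1 to 4, at 82.2, 81.1, 67.2 and 75.3 in burn replicates 5 to 8 and at 50.2, 54.5, 59.7 and 49.1 in burn anti-G-CSF replicates 9 to 12. Its burn isotype values were above the rest. Rpe rose by 0.40 ± 0.10, adjusted p = 0.00662, and was lower with anti-G-CSF (-0.52 ± 0.10, adjusted p = 5.63e-04). Taldo1, the transaldolase, ranged from 512 to 633 CPM in sham, 582 to 719 after burn and 416 to 506 with anti-G-CSF. It did not pass after burn (0.18 ± 0.092, adjusted p = 0.195) and was lower with anti-G-CSF (-0.50 ± 0.093, adjusted p = 4.41e-04). Rpia, the isomerase that makes ribose 5-phosphate, passed in neither comparison (-0.067 ± 0.090, adjusted p = 0.668, and -0.12 ± 0.090, adjusted p = 0.319), with library values from 87.8 to 124 CPM.

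All 3 glycogen genes rose after burn and were lower with anti-G-CSF. Pygl, the phosphorylase of liver and of leukocytes that releases glucose 1-phosphate from glycogen, stood at 648, 604, 562 and 602 CPM in sham replicates 1 to 4, at 1169.6, 1065, 897 and 925 in burn replicates 5 to 8 and at 307, 399, 519 and 435 in burn anti-G-CSF replicates 9 to 12. Its groups were fully apart. Pygl rose by 0.75 ± 0.13, adjusted p = 4.66e-04, and was 2.44-fold lower with anti-G-CSF (-1.29 ± 0.13, adjusted p = 1.04e-06). Gys1, the glycogen synthase found outside the liver, stood at 49.7, 52.3, 53.0 and 57.3 CPM in sham replicates 1 to 4, at 100.1, 88.2, 81.1 and 87.2 in burn replicates 5 to 8 and at 37.8, 44.7, 47.3 and 41.3 in burn anti-G-CSF replicates 9 to 12. Its groups were apart in the same order. Gys1 rose by 0.75 ± 0.085, adjusted p = 1.76e-05, and was lower with anti-G-CSF (-1.06 ± 0.086, adjusted p = 8.35e-08). Gbe1, the branching enzyme, stood at 39.1, 39.2, 37.9 and 37.6 CPM in sham replicates 1 to 4, at 58.3, 59.7, 47.3 and 49.6 in burn replicates 5 to 8 and at 25.8, 28.2, 40.6 and 37.1 in burn anti-G-CSF replicates 9 to 12. Its burn isotype values were the highest, and sham overlapped anti-G-CSF. Gbe1 rose by 0.48 ± 0.12, adjusted p = 0.00834, and was lower with anti-G-CSF (-0.70 ± 0.12, adjusted p = 2.61e-04).

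Compared per length of exon, the balance between isozymes within a library differed between the groups. The ratio of Hk3 to Hk1 in CPM per kb of exon was 1.53 to 1.69 in sham, 2.63 to 3.30 after burn and 0.935 to 1.34 with anti-G-CSF. Only in replicate 9 was Hk3 below Hk1. The ratio of Pkm to Pklr was 28.8 to 32.0, 61.4 to 118 and 26.1 to 28.5 in the same order, and all 12 libraries held far more Pkm. The ratio of Pgam1 to Bpgm was 0.201 to 0.238, 0.664 to 1.38 and 0.139 to 0.283. Burn replicate 5 was the library in which Pgam1 exceeded Bpgm. For each of the 3 ratios the burn isotype libraries lay above all others. Pfkfb4 to Pfkfb2 stood at 2.76 to 4.11 in sham, 5.51 to 9.15 after burn and 1.25 to 2.33 with anti-G-CSF. The ratio of Slc2a3 to Slc2a1 overlapped between sham and burn, at 9.87 to 11.8 and 9.82 to 11.9, and was 5.81 to 9.76 with anti-G-CSF. These ratios describe the libraries and were not tested.

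**Figure D4:**
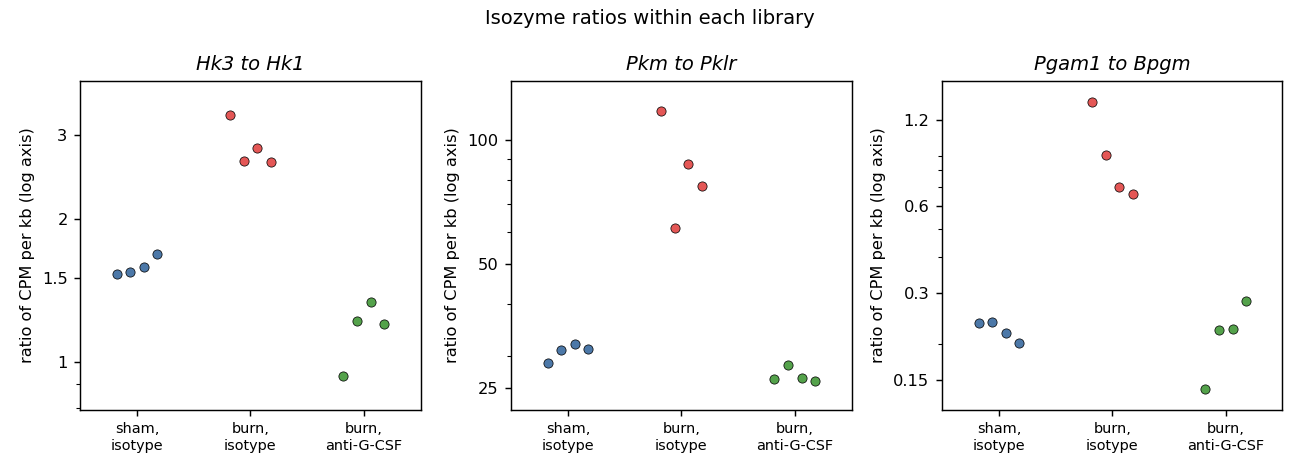
Ratio of CPM per kb of exon between isozymes (y axes, log scale) in each library (points, 4 per group), for Hk3 to Hk1, Pkm to Pklr and Pgam1 to Bpgm. The burn isotype libraries lie above both other groups in each panel.

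Per kb of exon, Bpgm had the highest level of the members in sham, at 679 ± 30.4 CPM per kb (SD, n = 4), followed by Taldo1 at 422 ± 39.2 and Pkm at 408 ± 24.2. The last 2 did not differ beyond their spread. After burn Pkm led at 686 ± 98.3, then Taldo1 at 479 ± 44.3 and Gpi1 at 384 ± 51.4, and Bpgm stood at 283 ± 55.4. With anti-G-CSF Bpgm was again first at 748 ± 199, with Pkm at 346 ± 41.1 and Taldo1 at 339 ± 30.6. Lengths are the union of annotated exons, so a gene that uses few of its exons is placed too low. The shared words named above bear on Pkm and on Gapdh, the latter at 87.9 ± 6.23 in sham. Together the 37 members took 0.970 to 1.01% of all counts in sham, 1.17 to 1.33% after burn and 0.870 to 0.980% with anti-G-CSF. Bpgm made up 0.146 to 0.163, 0.0414 to 0.0727 and 0.138 to 0.245% of all counts in the same order.

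**Figure D5:**
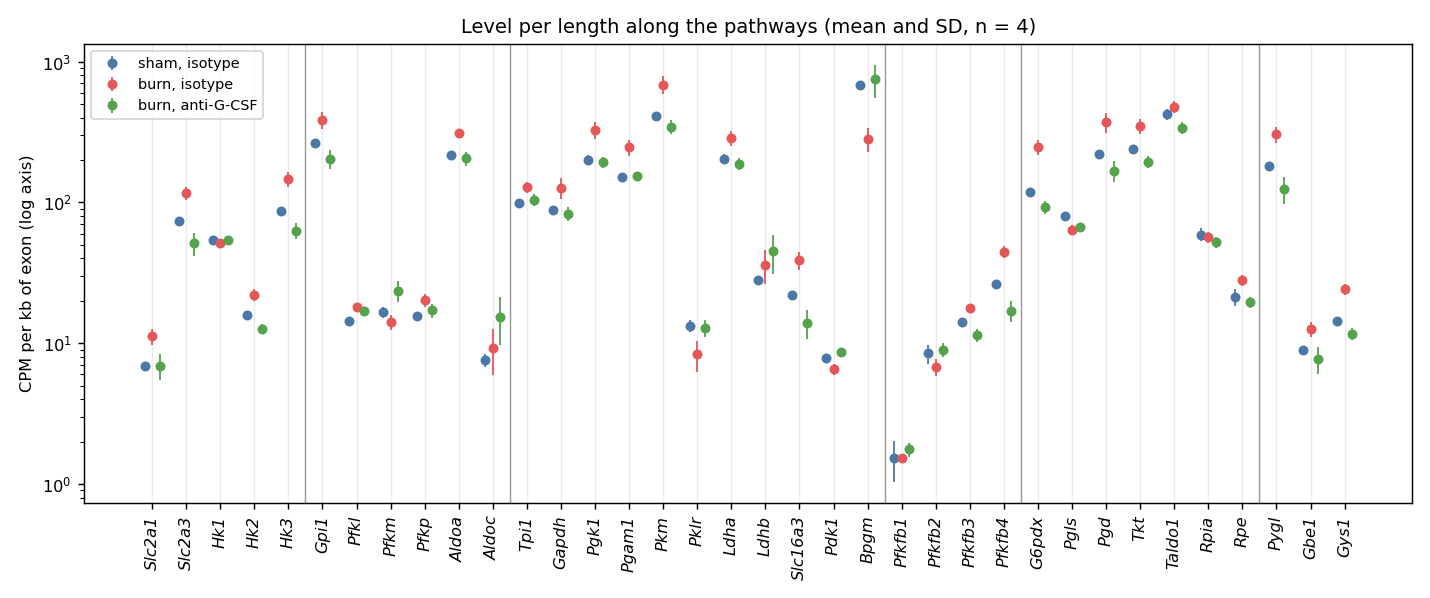
Level of the members other than Eno1 in CPM per kb of exon (y axis, log scale) in pathway order (x axis, lines between functional groups), as group mean and SD (n = 4). Bpgm is the highest member in sham and with anti-G-CSF, and Pkm after burn with isotype.

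Promoters of 36 members, in 56 windows of 250 bases before a RefSeq start, were searched for 2 short motifs on both strands. Slc2a3 had no promoter entry and is left out. Eno1 was searched but not tested for expression, so the counts by direction leave it out. The motif AGATAA, bound by GATA factors such as the red cell regulator GATA1, was in the windows of 4 members (11.1%), namely Pklr, Pfkm, Pfkfb1 and Pfkfb2, and of 11.4% of all genes. ACGTG, the core of the hypoxia response element bound by HIF, was in those of 13 members (36.1%) and of 18.5% of all genes. Of 23 matched members that rose after burn 11 held ACGTG and 0 held AGATAA. Of the 4 that fell 0 held ACGTG and 1, Pklr, held AGATAA. Of the 8 that were not called after burn 2 held ACGTG and 3 held AGATAA. Pfkm and Pfkfb2 held both motifs, and G6pdx, with the largest rise, held neither. A match is a run of letters and not a known site, and genes with several starts have more windows to match in. No other motif, such as another form of the hypoxia core, was searched. The split by direction was not tested, and the members were chosen with earlier results of these data known. Whether HIF or GATA factors bear on these genes was not tested. The 2 motifs share no overlap in the windows printed here. They are shown for the 2 red cell isozymes that fell and for 4 glycolytic genes that rose (RefSeq, GRCm38.p6, 5′ to 3′ on the gene's strand), with capitals for either motif. The 4 are all among the 11 risers with ACGTG, and no riser without it is shown. Of each gene 1 window is printed, and the second windows of Pklr and Ldha held neither motif. In the printed windows the matches are as follows. Bpgm has neither, Pklr has AGATAA, and the other 4 have ACGTG or its reverse complement CACGT.
Pklr, chr3:89135892-89136141, plus strand: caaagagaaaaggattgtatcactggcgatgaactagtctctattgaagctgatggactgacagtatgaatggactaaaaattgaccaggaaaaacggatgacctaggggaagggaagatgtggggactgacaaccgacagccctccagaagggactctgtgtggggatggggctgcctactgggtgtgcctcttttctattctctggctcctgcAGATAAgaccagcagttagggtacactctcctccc
Bpgm, chr6:34476106-34476355, plus strand: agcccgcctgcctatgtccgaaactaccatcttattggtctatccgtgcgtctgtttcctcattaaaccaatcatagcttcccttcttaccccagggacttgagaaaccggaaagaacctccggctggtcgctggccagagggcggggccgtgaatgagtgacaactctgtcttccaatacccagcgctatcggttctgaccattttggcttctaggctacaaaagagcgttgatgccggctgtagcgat
Hk3, chr13:55021386-55021635, minus strand: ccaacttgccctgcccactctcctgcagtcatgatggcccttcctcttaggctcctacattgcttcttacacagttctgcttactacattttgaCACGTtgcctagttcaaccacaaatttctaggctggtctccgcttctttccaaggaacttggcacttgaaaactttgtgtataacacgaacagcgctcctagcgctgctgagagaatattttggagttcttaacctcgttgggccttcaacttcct
Slc16a3, chr11:120948817-120949066, plus strand: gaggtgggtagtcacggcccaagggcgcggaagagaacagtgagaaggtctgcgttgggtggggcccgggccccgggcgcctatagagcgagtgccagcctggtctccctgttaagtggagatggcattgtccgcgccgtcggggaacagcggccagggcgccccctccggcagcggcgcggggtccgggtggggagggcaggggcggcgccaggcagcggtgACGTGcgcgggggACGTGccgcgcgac
Ldha, chr7:46845554-46845803, plus strand: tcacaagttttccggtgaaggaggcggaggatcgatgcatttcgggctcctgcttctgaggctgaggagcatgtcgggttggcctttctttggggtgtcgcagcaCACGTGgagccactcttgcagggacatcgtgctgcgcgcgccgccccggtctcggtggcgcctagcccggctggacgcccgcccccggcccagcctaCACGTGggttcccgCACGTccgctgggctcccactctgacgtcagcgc
Pgk1, chrX:106186850-106187099, plus strand: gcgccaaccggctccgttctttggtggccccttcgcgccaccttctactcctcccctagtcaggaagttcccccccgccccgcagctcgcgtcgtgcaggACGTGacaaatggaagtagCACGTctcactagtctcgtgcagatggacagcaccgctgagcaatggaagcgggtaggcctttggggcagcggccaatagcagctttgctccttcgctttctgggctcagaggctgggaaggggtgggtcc

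Other genes of the same pathways were examined as well. Of 78 tested in 4 lists, 17 rose and 9 fell after burn, with a median of 0.12, beside 11.1% and 9.92% of all genes. With anti-G-CSF 18 were higher and 20 lower, with a median of 0.033, beside 17.7% and 16.9% of all genes. Among 19 other sugar transporters, kinases and isozymes 5 rose and 2 fell. Adpgk, which phosphorylates glucose with ADP, went from 513 ± 12.0 to 884 ± 80.5 CPM after burn (0.79 ± 0.089, adjusted p = 1.76e-05) and was lower with anti-G-CSF (-1.24 ± 0.090, adjusted p = 3.88e-08). Minpp1, a phosphatase that can also act on 2,3-bisphosphoglycerate, fell (-0.54 ± 0.10, adjusted p = 8.94e-04), and Eno3, the muscle enolase, rose (0.61 ± 0.12, adjusted p = 0.00101). With anti-G-CSF the transporter gene Slc2a6 was lower (-0.88 ± 0.11, adjusted p = 1.08e-05) and Slc2a4, the insulin-responsive GLUT4, higher (0.86 ± 0.14, adjusted p = 1.28e-04). The summed brain and heart genes were also higher on average with anti-G-CSF, and whether Slc2a4 follows them was not examined.

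Of 22 pyruvate and lactate genes 3 rose and 4 fell after burn, beside 11.1% and 9.92% of all genes. With anti-G-CSF 8 were higher and 3 lower, beside 17.7% and 16.9%. Slc16a1, the transporter MCT1, moved opposite to its relative Slc16a3, from 307 ± 22.1 to 178 ± 20.5 CPM after burn (-0.78 ± 0.10, adjusted p = 3.94e-05), and was higher with anti-G-CSF (0.85 ± 0.10, adjusted p = 4.63e-06). Bsg, the chaperone of both transporters, fell after burn (-0.41 ± 0.084, adjusted p = 0.00178). Gpd2, of the mitochondrial glycerol phosphate shuttle, rose after burn (0.53 ± 0.083, adjusted p = 1.98e-04) and was lower with anti-G-CSF (-0.56 ± 0.083, adjusted p = 5.34e-05). Pcx, the pyruvate carboxylase, was higher with anti-G-CSF (0.91 ± 0.15, adjusted p = 1.46e-04). Whether Pcx follows the brain or heart level was not examined.

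Of 9 pentose phosphate genes outside the 37, 1 rose and 2 fell after burn, beside 11.1% and 9.92% of all genes. H6pd, the glucose 6-phosphate dehydrogenase of the endoplasmic reticulum, rose (0.54 ± 0.092, adjusted p = 4.13e-04) and was lower with anti-G-CSF (-0.76 ± 0.092, adjusted p = 6.38e-06). The ribose phosphate kinase genes Prps2 (-0.30 ± 0.083, adjusted p = 0.0134) and Prps1l3 (-0.28 ± 0.10, adjusted p = 0.0450) fell. Prps2 was higher with anti-G-CSF (0.43 ± 0.083, adjusted p = 5.86e-04). G6pd2, a retrotransposed relative of G6pdx, went from 0.710 ± 0.107 CPM after burn to 0.181 ± 0.220 with anti-G-CSF (SD, edgeR adjusted p = 0.0327), and reads it may share with G6pdx leave it uncertain.

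Among 28 other glycogen and glucose phosphate genes 8 rose and 1 fell after burn, beside 11.1% and 9.92% of all genes. With anti-G-CSF 9 were lower and 4 higher, beside 16.9% and 17.7%. Glycogenin, Gyg, which primes glycogen, rose (0.94 ± 0.11, adjusted p = 2.82e-05), as did Ppp1r3d, which brings a phosphatase to glycogen (1.13 ± 0.13, adjusted p = 2.07e-05). With anti-G-CSF Ppp1r3d (-1.80 ± 0.13, adjusted p = 4.49e-08) and its relative Ppp1r3b (-1.59 ± 0.13, adjusted p = 1.59e-07) were lower.

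Of 15 regulators of the pathway 3 rose after burn and 0 fell, beside 11.1% and 9.92% of all genes. With anti-G-CSF 5 were lower and 0 higher, beside 16.9% and 17.7%. The risers were Egln3, a hydroxylase that marks HIF for destruction (0.62 ± 0.11, adjusted p = 7.38e-04), Mlx, the partner of the glucose-sensing factors (0.38 ± 0.10, adjusted p = 0.00742), and Hif1a, the oxygen-regulated subunit of HIF (0.41 ± 0.11, adjusted p = 0.0116). With anti-G-CSF Egln3 (-0.68 ± 0.11, adjusted p = 1.69e-04), Mlx (-0.53 ± 0.10, adjusted p = 3.78e-04) and Prkaa1, a catalytic subunit of the energy sensor AMPK (-0.37 ± 0.076, adjusted p = 0.00107), were lower.

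Burn with anti-G-CSF was also set against sham with isotype, a comparison in which injury and antibody both differ. Here 13 members were lower and 2 higher, while 3.91% of all genes passed as lower and 7.09% as higher. Groups did not overlap for 19 members, of which 15 lay lower than sham, beside 17.0% of all genes. The counts that passed rested on single libraries. Leaving out sham replicate 1, 2, 3 or 4 left 3, 5, 8 or 6 lower, leaving out anti-G-CSF replicate 9 or 12 left 5 in either case, and leaving out replicate 10 or 11 left 10 or 14. The number higher was 0 to 3, with 0 left when replicate 4, 9 or 12 was out. Without replicates 9 and 12 together 1 was lower and 0 higher. With the brain level as a covariate 0 were lower and 0 higher. Every anti-G-CSF library had a higher brain level than every sham library, and in that fit the level and the group can hardly be told apart. Slc16a3 (-0.65 ± 0.14, adjusted p = 0.0147), Pfkfb4 (-0.63 ± 0.11, adjusted p = 0.00533), Pygl (-0.54 ± 0.13, adjusted p = 0.0180), Slc2a3 (-0.52 ± 0.11, adjusted p = 0.0135) and Hk3 (-0.46 ± 0.10, adjusted p = 0.0131) were the members furthest below sham. Of the 5, Pfkfb4 passed without replicates 9 and 12 (adjusted p = 0.0444). Of the 16 neutrophil markers 15 were lower than sham, and their part in these differences was not tested.

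The 2 members called above sham were Aldoc (1.04 ± 0.28, adjusted p = 0.0360) and Pfkm (0.51 ± 0.11, adjusted p = 0.0155), both among the genes that followed the brain level. Neither passed without replicates 9 and 12 (adjusted p = 0.475 and 0.335). Pfkl and Ldhb were not called, though all their anti-G-CSF libraries lay above all sham libraries. Both passed with library-size scaling (adjusted p = 0.0157 and 0.0475). The red cell isozymes stood near sham, with Bpgm at 0.14 ± 0.16, adjusted p = 0.664, Pklr at -0.045 ± 0.14, adjusted p = 0.894, and Hk1 at -0.019 ± 0.070, adjusted p = 0.915. Upper glycolytic and pentose phosphate genes with smaller differences included G6pdx (-0.37 ± 0.10, adjusted p = 0.0235), Pfkfb3 (-0.32 ± 0.078, adjusted p = 0.0190) and Gpi1 (-0.37 ± 0.11, adjusted p = 0.0374). G6pdx, Pfkfb3 and Gpi1 did not pass without replicates 9 and 12 (adjusted p = 0.281, 0.370 and 0.383). In the 4 other lists 7 genes were higher and 4 lower than sham, beside 7.09% and 3.91% of all genes. With replicates 9 and 12 left out, 18 of all genes were higher and 17 lower than sham. Whether genes of these lists or the regulators are among those was not examined. Those lists and the regulators included Eno3 (1.08 ± 0.12, adjusted p = 1.35e-04), Adpgk (-0.46 ± 0.089, adjusted p = 0.00879), Ppp1r3d (-0.67 ± 0.13, adjusted p = 0.0102), its relative Ppp1r3b (-0.60 ± 0.13, adjusted p = 0.0149), the malic enzyme Me1 (1.24 ± 0.31, adjusted p = 0.0211) and Txnip, which restrains glucose uptake (-0.45 ± 0.13, adjusted p = 0.0322). Also past it were Pygm, the muscle phosphorylase (0.91 ± 0.22, adjusted p = 0.0205), Ldhc, a lactate dehydrogenase typical of testis (-0.85 ± 0.21, adjusted p = 0.0208), and Pdk4, a relative of Pdk1 (1.24 ± 0.34, adjusted p = 0.0294).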

How the data were processed

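The authors deposited 1 table of whole-number read counts per gene, without normalisation, and it was the only input. Per the labels' protocols, polyadenylated RNA was selected and strand-marking dUTP libraries were made. The submitters' processing notes name TopHat2 and mm10. Which program counted reads, with which strand setting and gene models, is not given in the sources used here. Total counts ran from 18780399 to 25708084. Pairs of libraries within a group differed by 5.81 to 31.9 chi-square units per degree of freedom over genes, so none looked like 1 library deposited under 2 names. The labels do not say that libraries came from separate mice, so p-values reflect the variation from library to library, which may be technical.

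Genes were filtered with filterByExpr by group, scaled with TMM factors and fitted with edgeR 4.0.16 (R 4.3.3), robust quasi-likelihood, all 12 libraries, 1 mean per group and 9 residual degrees of freedom. Tests are 2-sided. The SE is the absolute log2 change divided by the square root of F. CPM uses the scaled library size. Spreadsheet dates were turned back into symbols for 27 genes. Starts were raised by 1 to count from 1. Exon lengths and 50-base words came from GENCODE M21 (GRCm38). The brain level used as a covariate averages log2(CPM + 0.5) over 18 genes.

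The members and all lists were chosen with earlier results of these data known. Every member is named. Per-library values are printed for members past the threshold with a log2 change of at least 0.5 in some comparison and for their isozymes, and up to 3 genes per other list and comparison by smallest p among those called, with 1 gene not reported here. On simulated counts the test was checked to recover larger seeded changes. Recovery of changes as small as most of those seen here after burn was not required. Alternatives were DESeq2 1.42.0 size factors and Wald test, library-size scaling, 2 other filters, only the groups compared, the brain level as covariate, and libraries left out.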

Additional observations from a re-analysis of the deposited data

Results flagged for a closer look

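In 3 of 108 sets of 4 libraries, 1 for each tested member and group, a single library lay apart from the other 3 by a gap that exceeded Dixon's 95% critical value for its share of the group's range. Chance alone flags about 5 in 100 such sets. Slc2a1, the GLUT1 transporter, was highest in burn replicate 6 at 43.8 CPM, with the other burn isotype libraries at 33.4 to 34.9. Pfkp, the platelet-type phosphofructokinase subunit, was highest in sham replicate 1 at 71.1 CPM, with the others at 65.0 to 65.9. Pfkfb1 was lowest in burn replicate 8 at 2.75 CPM, with the others at 3.21 to 3.24.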

How the results depend on the processing

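After burn 24 members rose under every alternative run, and 3 to 6 fell. With anti-G-CSF against isotype after burn, 22 to 24 members were lower and 3 to 8 higher. Of 1692 values of single members under the alternatives, 1513 kept their direction and side of the threshold, 112 no longer passed, 23 newly passed and 44 turned sign. The comparison of anti-G-CSF with sham was the least stable, and the cause was not tested. No paired analysis was possible because no replicate number is shared between groups. Pfkfb1 and Eno1 had the fewest counts of the members, and a change in either may not be detectable at this depth.

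Library-size scaling alone gave 2846 genes lower after burn. For anti-G-CSF against isotype it gave 5762 genes higher and 1673 lower, with 8 members higher, against 2703, 2582 and 5 with TMM. Against sham it gave 376 genes lower, 4 members higher and 7 lower. The log2 change turned sign for Pfkfb1 at -0.096 after burn, for Pfkl at 0.092 and Rpia at 0.065 between the burn groups, and for Hk1 at 0.063, Pgk1 at 0.013 and Pklr at 0.037 against sham. Under DESeq2 size factors and DESeq2's Wald test Slc2a1 against sham was -0.014 and -0.014, and the Wald test called 1007 genes lower there. Without the expression filter 1 member was higher than sham. Fitting only the groups compared gave 1602 genes higher between the burn groups, 4 members higher than sham and Pfkfb1 at -0.0013 after burn.

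The brain score as a covariate gave 1356 genes higher, 1570 lower and 3 members higher between the burn groups, where Pfkl stood at 0.0082, Aldoc at -0.071, Ldhb at -0.33 and Rpia at 0.071. Against sham it left 11 genes higher, 4 lower and 0 members in either direction. There Slc2a1 stood at -0.028, Hk1 at 0.030, Aldoc at -0.051, Gapdh at 0.0031, Pgk1 at 0.013, Pklr at 0.23, Ldha at 0.0026, Ldhb at -0.16, Pdk1 at -0.014, Rpia at 0.048 and Rpe at 0.11, and Pfkfb1 after burn at -0.00032. Leaving out replicates 9 and 12 gave 1280 genes higher between the burn groups, with Ldhb at -0.090. Against sham it left 18 genes higher and 17 lower, 0 members higher and 1 lower, with Slc2a1 at -0.17 and Tpi1 at -0.041.

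Leaving out each library in turn gave 1639 to 3045 genes higher between the burn groups. Against sham it gave 148 to 1414 genes higher, 177 to 857 lower, 0 to 3 members higher and 3 to 14 lower. Signs turned within -0.11 to 0.24 for Pfkfb1 and -0.13 to 0.0057 for Rpia after burn. Against sham they turned within -0.052 to 0.24 for Bpgm, -0.041 to 0.0048 for Hk1, -0.0038 to 0.17 for Pfkfb2, -0.11 to 0.025 for Pklr and -0.13 to 0.13 for Slc2a1.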
